A study of Mus musculus with 16 samples.

Results

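The subject is 5 collagen genes of the mouse, Col1a1, Col1a2, Col4a1, Col5a2 and Col12a1, in KIN-CLIP libraries of the RNA-binding protein Dazl. KIN-CLIP is a form of iCLIP that uses pulses of an ultraviolet laser to link a protein to RNA in living cells, for chosen times. The genes were chosen by name, and their regions by place: listed intervals at most 10 nt apart were joined into 8338 regions, and a region was given to the gene whose RefSeq span held it. The 5 genes held 62 of these regions, and they are 5 of the 3203 genes that held any. A region's value is its coverage summed over its positions, and a gene's value is the sum over its regions. Both are called coverage here, in the authors' normalized units.

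All libraries came from GC-1 spg cells, an immortalized mouse line derived from spermatogonia. The line used is monoclonal, so all libraries share 1 clone, and it carries a Dazl gene induced with doxycycline. The 12 libraries analysed here are 1 per condition. At 2.6 mW laser power and 4.2x Dazl, cells were crosslinked for 30, 180 or 680 s. The same 3 times were taken at 2.6 mW and 1x Dazl, at 1 mW and 4.2x Dazl, and at 1 mW and 1x Dazl. The samples of 0 s are not analysed here, so no coverage has an uncrosslinked background beside it. The question of the design is how coverage follows crosslinking time, laser power and Dazl level.

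Collagens are matrix proteins made of a triple helix of chains, each chain from a gene of its own. Col1a1 and Col1a2 encode the chains of type I collagen, the main fibril-forming collagen of bone, tendon and skin. Col5a2 encodes a chain of type V collagen, which joins type I fibrils and helps to set their width. Col4a1 encodes a chain of type IV collagen, the network of basement membranes, and Col12a1 encodes the chain of type XII collagen, which attaches to the surface of fibrils. Collagen mRNAs are translated at the endoplasmic reticulum, where the chains are hydroxylated, folded and assembled before export. In the testis, collagens lie mainly in the wall around the seminiferous tubules. Dazl is a germ cell protein that binds mRNAs, mostly in their untranslated regions, and affects their translation and stability.

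Total coverage of the libraries ran from 11271 to 252932, and the 5 collagen genes together held 0.719% to 0.952% of it. Depth in reads is unknown. Of 15 germ cell marker names, among which Zbtb16 and Plzf stand for the same gene, 3 had a region (Sall4, Mov10l1 and Rhox13). Their summed coverage was 3 to 10 over the libraries, and Dazl itself had no region. The Rhox13 region also lies in the span of another gene. Of 9 markers of peritubular and fibroblast cells, 2 had a region (Acta2 and Pdgfra, summed coverage 3 to 101), and of 7 Sertoli cell markers 2 had one (Wt1 and Dhh, 2 to 66). Endothelial cells had 1 of 4 markers (Kdr, 1 to 12), and Leydig cells and macrophages had none of 6 and none of 4. These are Dazl-bound fragments and not RNA levels, so a marker without a region is not shown to lack RNA, and binding per RNA molecule cannot be told apart from the number of RNA molecules. All 8338 regions were listed in all 12 libraries. In the series at 2.6 mW and 4.2x Dazl, 0 regions were lower at 680 s than at 30 s and 45.5% were exactly equal. Against 180 s, 0 regions were lower at 680 s in that series and in each series at 1 mW. At 2.6 mW and 1x 49 were. Values of the libraries are thus linked in a way the sources used here do not describe, and all p-values given here assume independent libraries.

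The collagen genes differed widely in how many regions they held and where. Col1a1 (chromosome 11, 94936224 to 94953042 in mm10, gene ID 12842) held 43 regions in a span of 16.8 kb. Only 1 gene of the 3203 held more, and the median gene held 2. Its 25.6 regions per 10 kb compare with a median of 0.567 over all genes. Of the 43 regions, 41 were 17 nt long, and the median gap between neighbours was 146.5 nt. Regions lay along the whole gene, the first 32 nt from the end with the lower coordinate and the last 39 nt from the other end, with a widest gap of 1722 nt. They were densest towards the higher coordinate, where the last 2000 nt held 17 regions.

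Col1a2, the partner chain, had its regions at the ends of the gene only. Its span (chromosome 6, 4505618 to 4541543, gene ID 12843) is 35.9 kb and held 6 regions. Of these, 2 lay 177 and 240 nt from the lower coordinate, which is the start of this gene by the strand in the RefSeq promoter table. The other 4 lay 605 to 895 nt from the higher coordinate, at the gene's end, and the 34757 nt between the groups held none. The sixth region, at 4540875 to 4540938, is 64 nt long and carried 176 of the gene's 283 at 680 s, 2.6 mW and 4.2x Dazl.

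The other chains had fewer regions per length. Col5a2 (chromosome 1, 45374331 to 45503282, gene ID 12832) held 10 regions in 129 kb: 3 within 251 nt of the lower coordinate, 2 within 437 nt of the higher coordinate, and 5 between. Col4a1 (chromosome 8, 11198423 to 11312889, gene ID 12826) held 2 regions, 54 and 1201 nt from the lower coordinate, which is the gene's end by the strand in the RefSeq promoter table. Both also lie in the long noncoding RNA gene Gm15418, and without strand in the files the 2 genes cannot be told apart there. Col12a1 (chromosome 9, 79598987 to 79721141, gene ID 12816) held 1 region, 768 nt from the lower coordinate. Of the 62 regions, 24 (38.7%) lay within 1000 nt of an end of their gene, against 42.6% of the 7838 regions in genes. Without Col1a1 it was 13 of 19 (68.4%). The annotation used gives spans without exons, so coding and untranslated parts are not told apart. No collagen region overlapped a promoter window of the RefSeq table, which covers Col1a2 and Col4a1 among these genes.

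**Figure D1:**
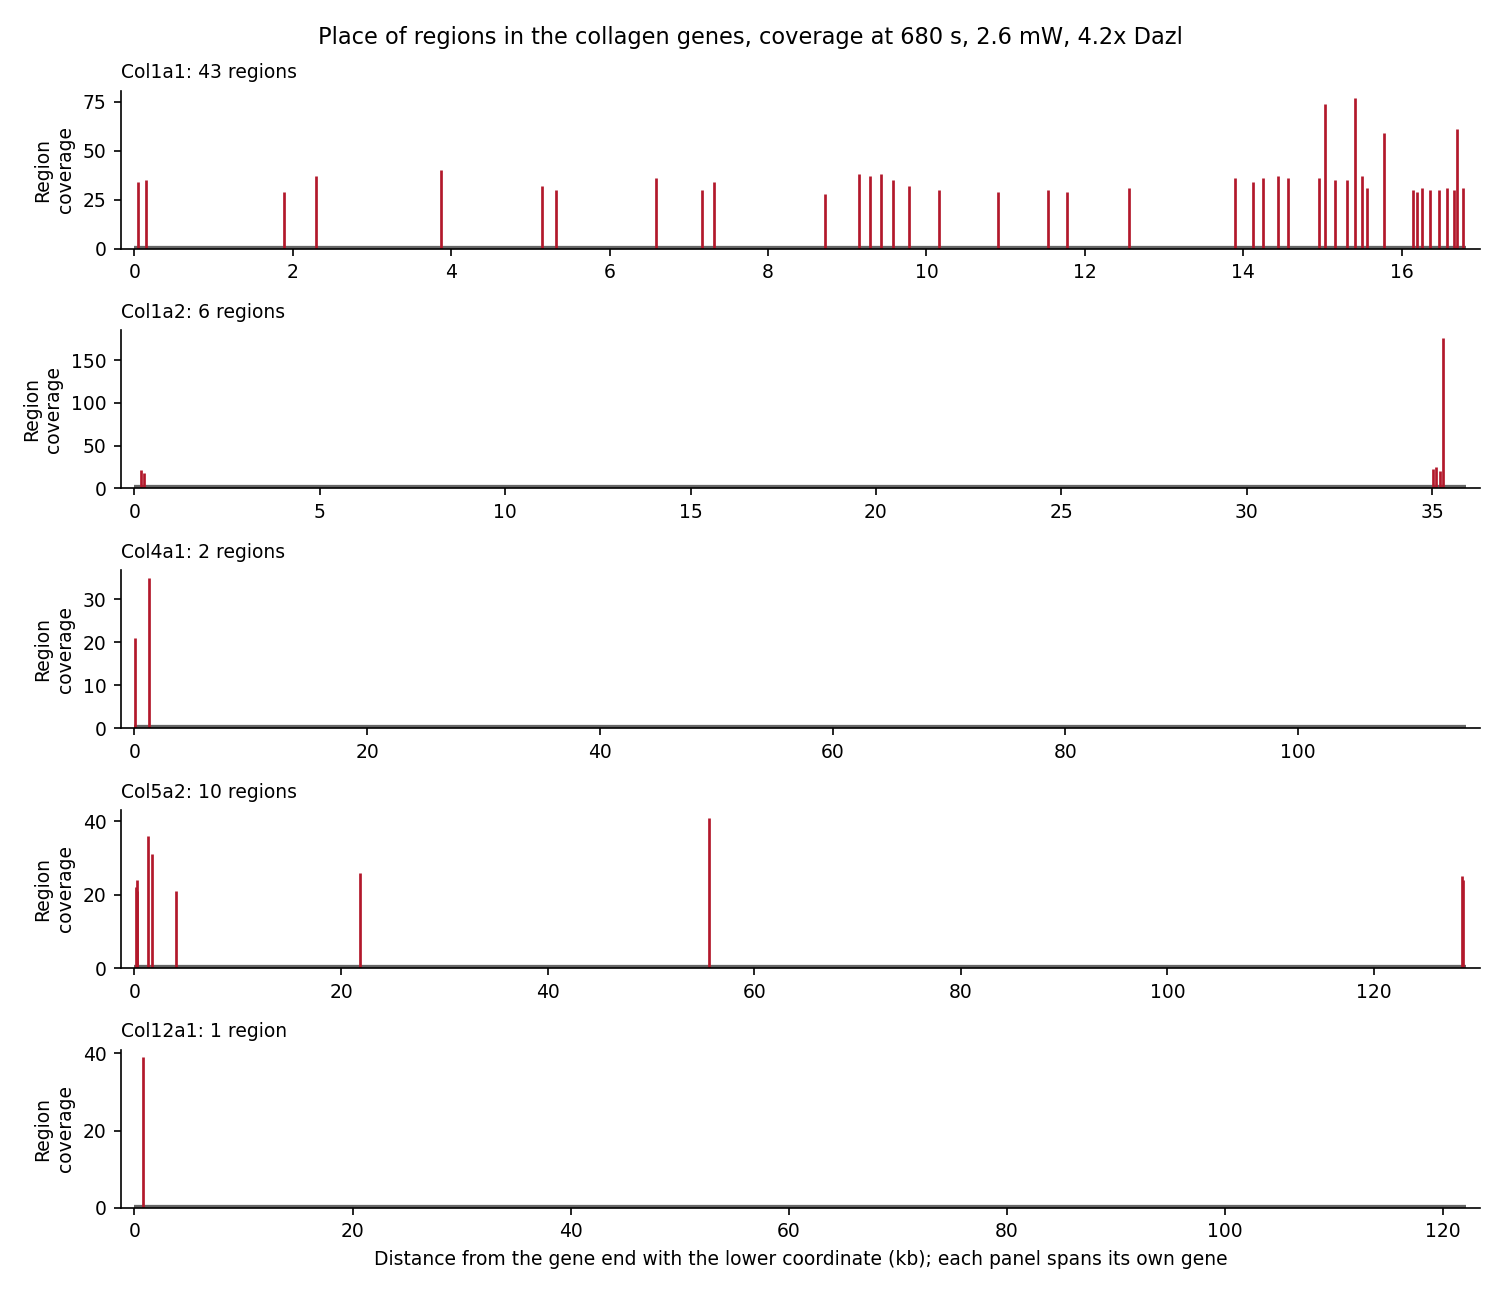
Place and coverage of the regions in each collagen gene. The x axis is the distance in kb from the end of the gene with the lower coordinate, and bar height is the region's coverage at 680 s, 2.6 mW and 4.2x Dazl. Col1a1 is covered along its length with 43 regions, the 6 regions of Col1a2 sit at its ends, and Col12a1 has 1 region.

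Coverage of Col1a1 was high in every library. In 680 s, 2.6 mW and 4.2x Dazl it reached 1560, and its mean over the 12 libraries was 715, the fourth highest of all genes, where the median gene had 16.3. Its rank within a library lay between 2 and 6. Mean coverage was 146 for Col1a2, 108 for Col5a2, 27.4 for Col4a1 and 15.0 for Col12a1. These sums grow with the number of regions, so levels were also set per nt of region. On that scale the mean coverage per nt of Col1a2 was 0.979, of Col1a1 0.961, of Col12a1 0.882, of Col4a1 0.806 and of Col5a2 0.605, where the median gene had 0.632. Neighbours in this order were not separated: Col1a2 was above Col1a1 in 7 of 12 libraries, Col1a1 above Col12a1 in 7, Col12a1 above Col4a1 in 6 with 2 equal, and Col4a1 above Col5a2 in 8. The high total of Col1a1 thus goes with its 43 regions, and its coverage per nt of region was close to that of Col1a2.

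Given in the order 30, 180 and 680 s, coverage of Col1a1 was 1082, 1146 and 1560 at 2.6 mW and 4.2x Dazl. It was 591, 509 and 1269 at 2.6 mW and 1x. At 1 mW it was 488, 338 and 963 at 4.2x, and 77, 53 and 506 at 1x. Every 680 s value was the highest of its series, and the 180 s value was below the 30 s value in 3 of the 4 series. Both hold for the library total, so this order is not particular to Col1a1.

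Col1a2 had 228, 241 and 283 at 2.6 mW and 4.2x, and 149, 139 and 235 at 2.6 mW and 1x. At 1 mW it had 97, 69 and 178 at 4.2x, and 17, 14 and 101 at 1x. As for Col1a1, the library at 1x and 1 mW was the lowest at each time. Col5a2, the type V chain, had 146, 166 and 271 at 2.6 mW and 4.2x, and 66, 54 and 233 at 2.6 mW and 1x. At 1 mW it had 58, 40 and 157 at 4.2x, and 12, 11 and 85 at 1x. Its early values were low against its own 680 s values in each series.

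Col4a1, the basement membrane chain, had 53, 55 and 56 at 2.6 mW and 4.2x, which is nearly flat over time. It had 22, 28 and 49 at 2.6 mW and 1x, 12, 11 and 25 at 1 mW and 4.2x, and 2, 2 and 14 at 1 mW and 1x. Col12a1 had 29, 28 and 39 at 2.6 mW and 4.2x, and 5, 2 and 34 at 2.6 mW and 1x. At 1 mW it had 3, 2 and 27 at 4.2x, and 1, 1 and 9 at 1x. Folds of these last 2 genes against 30 and 180 s at 1 mW and 1x rest on a coverage of 1 or 2.

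**Figure D2:**
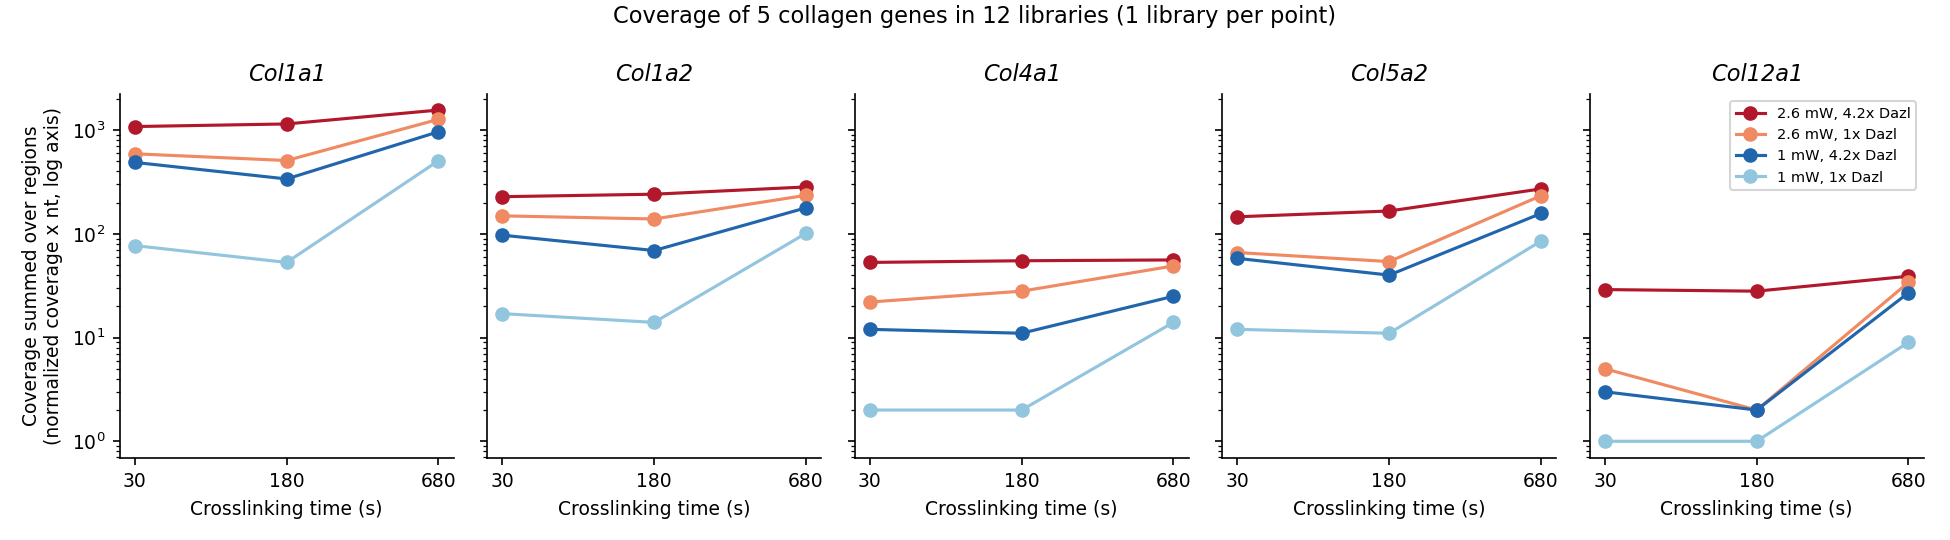
Coverage of each collagen gene in the 12 libraries, on a log axis, against crosslinking time (30, 180 and 680 s, drawn evenly spaced). Each point is 1 library and each line joins the times of 1 laser power and Dazl level. The series at 2.6 mW and 4.2x Dazl is highest and the series at 1 mW and 1x is lowest in every panel, and Col1a1 reaches 1560.

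For each gene, coverage at 30 s was taken as a share of coverage at 680 s. It is a ratio of linked libraries and not a rate. Library totals fell from 30 to 180 s in every series but that at 2.6 mW and 4.2x Dazl. At 2.6 mW and 4.2x Dazl this share was 94.6% for Col4a1, 80.6% for Col1a2, 74.4% for Col12a1, 69.4% for Col1a1 and 53.9% for Col5a2. The median gene had 68.9%, so Col1a1 was close to the middle of all genes and Col5a2 was below it. At 2.6 mW and 1x the share was 63.4% for Col1a2, 46.6% for Col1a1, 44.9% for Col4a1, 28.3% for Col5a2 and 14.7% for Col12a1, with 45.9% for the median gene. At 1 mW and 4.2x it was 54.5%, 50.7% and 48.0% for Col1a2, Col1a1 and Col4a1, 36.9% for Col5a2 and 11.1% for Col12a1, with 50% for the median gene. At 1 mW and 1x all 5 genes lay between 11.1% and 16.8%, below the median gene at 18.2%. At 30 s in that series 46 of the 62 collagen regions, and 74.0% of all regions, stood at the lowest value, 1. Shares there thus depend largely on the 680 s coverage. Col1a2 had a higher share than Col1a1, its partner chain, in all 4 series, and Col5a2 a lower one. With 4 series the smallest possible p of an exact test is 0.125, so these orders are given as values.

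Over the 4 matched pairs, 680 s coverage was above 30 s coverage in 4 of 4 for each gene, as for the library total. The ratio lay between 1.44 and 6.57 for Col1a1, 1.24 and 5.94 for Col1a2, 1.06 and 7 for Col4a1, 1.86 and 7.08 for Col5a2, and 1.34 and 9 for Col12a1, where the library total had 1.45 to 5.33. All 5 genes were called higher at 680 s than at 30 s by limma's additive model, where 73% of all genes were called higher. The largest log2 changes were those of Col5a2 (1.65 ± 0.43 SE, limma adjusted p = 0.000684) and Col12a1 (1.63 ± 0.34, adjusted p = 2.5e-05), and the median gene had 1.03. Col1a1 had 1.32 ± 0.53 (limma adjusted p = 0.0223), Col1a2 1.05 ± 0.45 (0.0334) and Col4a1 0.95 ± 0.36 (0.0164).

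The time calls of 3 of these genes depend on single libraries. Those of Col1a1 and Col1a2 were lost when any of 5 libraries was left out: 30 s at 2.6 mW and 4.2x, 680 s at 2.6 mW and 1x, 680 s at 1 mW and 4.2x, or 30 s or 680 s at 1 mW and 1x. The highest limma adjusted p was then 0.112 for Col1a1 and 0.169 for Col1a2, both without 30 s at 1 mW and 1x. Col4a1 lost its call without any of the last 4 of these libraries, with an adjusted p of up to 0.0936. The log2 changes in these fits lay between 1.02 and 1.26 for Col1a1, 0.74 and 1.05 for Col1a2, and 0.76 and 0.90 for Col4a1, all still above 0. The calls of Col5a2 and Col12a1 held in all of these fits.

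Coverage of each collagen gene was higher at 4.2x than at 1x Dazl in all 6 matched pairs. For Col1a1, 4.2x over 1x Dazl was 1.83, 2.25 and 1.23 at 30, 180 and 680 s at 2.6 mW, and 6.34, 6.38 and 1.90 at 1 mW. The library total gave 1.89, 2.16 and 1.24 at 2.6 mW, and 5.00, 4.29 and 1.93 at 1 mW. The ratio was smallest at 680 s at both laser powers for Col1a1, as for the total. Over the pairs it ranged from 1.20 to 5.71 for Col1a2, 1.14 to 6 for Col4a1, 1.16 to 4.83 for Col5a2 and 1.15 to 14 for Col12a1, the last against a coverage of 2.

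All 5 genes were called higher at 4.2x than at 1x Dazl by limma, where 82.4% of all genes were called higher. The log2 difference was 1.41 ± 0.43 SE for Col1a1 (limma adjusted p = 0.00302), 1.23 ± 0.35 for Col5a2 (0.00172) and 1.17 ± 0.28 for Col12a1 (0.000309). It was 1.14 ± 0.37 for Col1a2 (limma adjusted p = 0.00484) and 1.01 ± 0.29 for Col4a1 (0.00212), and the median gene had 0.88. The exact two-sided sign-flip test over 6 pairs gave p = 0.0312 for each of the 5 genes, the smallest it can give. The library total was also higher at 4.2x in 6 of 6 pairs, so a gene that only follows its library gets this p. Without the 30 s libraries, 4 of the genes lost their call, with limma adjusted p between 0.065 (Col5a2) and 0.0903 (Col1a2), and only Col12a1 kept it. Without the 180 s libraries, Col1a1 (0.0526), Col1a2 (0.0663) and Col5a2 (0.0516) lost it.

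Coverage of each collagen gene was also higher at 2.6 mW than at 1 mW in all 6 matched pairs. For Col1a1, 2.6 mW over 1 mW was 2.22, 3.39 and 1.62 at 30, 180 and 680 s at 4.2x Dazl, and 7.68, 9.60 and 2.51 at 1x. For Col4a1 it was 4.42, 5 and 2.24 at 4.2x, and 11, 14 and 3.5 at 1x. The median gene had a ratio of 1.6 to 5.75 over the 6 pairs. Both genes showed the smallest ratio at 680 s at each Dazl level, as did the library total and the median gene.

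All 5 genes were called higher at 2.6 mW than at 1 mW by limma, where 93.4% of all genes were called higher and the median log2 difference was 1.22. Col4a1 had 1.93 ± 0.29 SE (limma adjusted p = 5.14e-08), Col1a1 1.83 ± 0.43 (7.52e-05) and Col1a2 1.80 ± 0.37 (1.03e-05). Col5a2 had 1.61 ± 0.35 (limma adjusted p = 2.28e-05) and Col12a1 1.41 ± 0.28 (4.49e-06). The exact sign-flip test gave p = 0.0312 for each gene, again the smallest of 6 pairs. A gene that only follows its library gets this p too, since the library total was higher at 2.6 mW in 6 of 6 pairs. No laser call of the 5 genes was lost in any alternative tried.

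**Figure D3:**
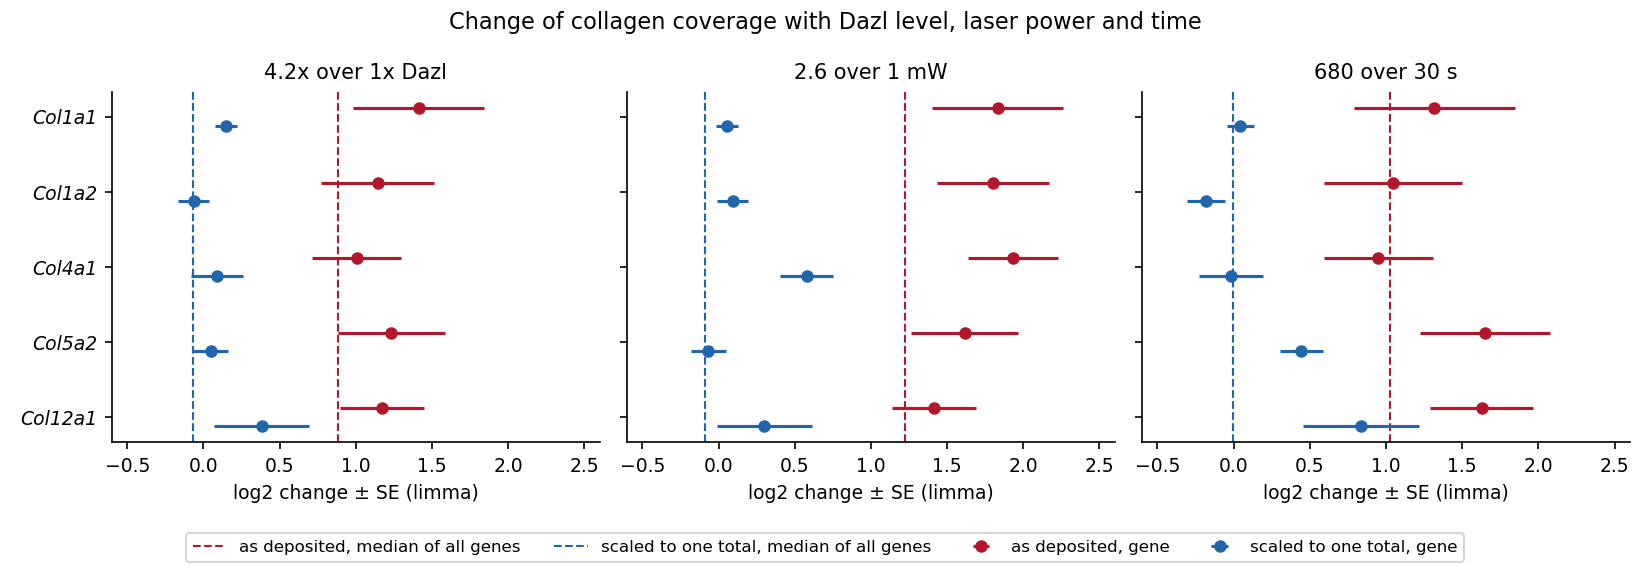
Log2 change ± SE from limma for each collagen gene with Dazl level (4.2x over 1x), laser power (2.6 over 1 mW) and time (680 over 30 s), for values as deposited and for libraries scaled to one total, with dashed lines at the median of all genes. As deposited, all 5 genes lie above 0 in each panel. After scaling the values lie near 0, the largest being 0.84 for Col12a1 with time and 0.58 for Col4a1 with laser power.

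Since most genes changed with each factor, coverage was also compared after scaling every library to one total. On this scale none of the 5 genes was called for any factor. For Dazl level and laser power 0 of 3203 genes were called by limma, while 531 and 932 had an unadjusted p under 0.05. For time 9.49% of genes were called higher and 1.56% lower (304 and 50 genes). Centring each library on its median gene instead turned that split to 327 higher and 623 lower, and gave 98 higher and 485 lower for Dazl level and 346 higher and 733 lower for laser power. The scaled log2 difference with Dazl level lay between −0.07 (Col1a2) and 0.38 (Col12a1). With laser power it was 0.58 ± 0.17 SE for Col4a1 (limma adjusted p = 0.13) and between −0.07 and 0.30 for the other genes.

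With time the scaled change was 0.44 ± 0.14 SE for Col5a2 (limma adjusted p = 0.0502) and 0.84 ± 0.38 for Col12a1 (0.168). Col1a1, Col4a1 and Col1a2 had scaled changes of 0.04, −0.02 and −0.18. Col5a2 lies at the threshold: its adjusted p was 0.0294 without 180 s at 2.6 mW and 1x, 0.0445 without 30 s at 1 mW and 1x, and 0.0422 without 180 s at 1 mW and 1x. In 16 of 21 alternatives it was not called, with a limma adjusted p of up to 0.179. Col4a1 passed with laser power without 680 s at 2.6 mW and 4.2x (0.0477) and when libraries were centred on the median gene (0.69, limma adjusted p = 0.00503). In 20 of 22 alternatives Col4a1 was not called with laser power, with a limma adjusted p of up to 0.62. Its scaled coverage was higher at 2.6 mW than at 1 mW in 6 of 6 pairs. An exact test of these ratios, added after the data had been seen, gave an unadjusted p = 0.0312, the lowest that 6 pairs allow. Col1a1 and Col1a2 were not called on this scale under any alternative.

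Whether the factors act together was tested with interaction terms, which were added after the data had been seen. None of the 5 genes passed. The log2 interaction of Dazl level with laser power ranged from −1.27 to 0.86 (limma adjusted p 0.369 to 0.665), where 0.0312% of all genes, 1 gene, passed. That of Dazl level with time ranged from −1.13 to −0.54 (limma adjusted p 0.689 to 0.746), and that of laser power with time from −1.14 to −0.65 (0.732 to 0.775). The negative time terms of all 5 genes run the same way as the medians of all genes, which were −0.46 and −0.29.

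The collagen genes were also compared with each other over matched libraries, in 20 exact sign-flip tests (10 pairs of genes, Dazl level and laser power). None passed after adjustment. Col1a1 differed more with Dazl level than Col1a2 in 6 of 6 pairs, by 0.27 ± 0.18 on the log2 scale (SD, n = 6 pairs, exact p = 0.0312, adjusted 0.312). Col4a1 differed more with laser power than Col5a2 in 6 of 6, by 0.32 ± 0.24 (SD, n = 6, exact p = 0.0312, adjusted 0.312). The differences to Col12a1 had an SD of 1.08 to 1.59 with Dazl level. For time, with 4 pairs and no test, the log2 ratio of 680 over 30 s was larger for Col1a1 than for Col1a2 in 4 of 4 (by 0.27 ± 0.14 SD) and smaller for Col4a1 than for Col5a2 in 4 of 4 (Col4a1 minus Col5a2, −0.70 ± 0.14 SD).

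Single regions of 1 gene followed different courses. In the series at 2.6 mW and 4.2x Dazl, 23 of the 43 regions of Col1a1 (53.5%) had exactly the same coverage at 30 s as at 680 s, where 45.5% of all regions did. Regions with at most 25% of their 680 s coverage at 30 s numbered 7 (16.3%, against 16.9% of all regions), and 13 lay between. Region 34 of Col1a1, counted from the lower coordinate (94951988 to 94952015), is of the first kind. Its coverage was 59, 57 and 59 at 30, 180 and 680 s at 2.6 mW and 4.2x, and 42, 35 and 48 at 2.6 mW and 1x. At 1 mW it was 16, 14 and 32 at 4.2x, and 2, 2 and 17 at 1x.

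Region 31 of Col1a1 (94951633 to 94951649) had the highest 680 s coverage of the gene at 4.2x Dazl, and came up late. At 1x region 42 was higher at 680 s, with 58 at 2.6 mW and 27 at 1 mW. Region 31 had 13, 23 and 77 at 2.6 mW and 4.2x, and 4, 3 and 55 at 2.6 mW and 1x. At 1 mW it had 17, 10 and 58 at 4.2x, and 2, 2 and 25 at 1x. Its log2 change from 30 to 680 s was 2.37 ± 0.38 SE, against 0.77 ± 0.40 for region 34 (limma adjusted p over all regions = 5.07e-09 and 0.084). Regions 5 (94940082 to 94940098) and 8 (94942800 to 94942816) had the largest changes of the 62, 2.55 ± 0.33 and 2.50 ± 0.33. Region 5 had 5, 22 and 40 at 2.6 mW and 4.2x, and 1, 1 and 19 in both 1 mW series.

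The classes of Col1a1 regions were set on 1 series and can be followed in the other 3. The 23 regions that were early at 2.6 mW and 4.2x had together 63.4% of their 680 s coverage at 30 s at 2.6 mW and 1x, and the 7 late ones had 13.6%. At 1 mW and 4.2x these were 59.5% and 18.2%. The 13 regions between had 41.2% at 2.6 mW and 1x. At 1 mW and 4.2x they had 59.1%, about that of the early regions. At 1 mW and 1x the order was turned, with 11.5% for the early, 15.8% for the between and 22.7% for the late regions. Of the late regions' summed 30 s coverage of 25 there, region 30 alone held 13. In that series 31 of the 43 regions stood at a coverage of 1 at 30 s. Over the 43 regions the 30 s share at 2.6 mW and 4.2x had a rank correlation (Spearman's rho) of 0.53 with that at 2.6 mW and 1x, 0.42 with that at 1 mW and 4.2x, and −0.08 with that at 1 mW and 1x. The regions share libraries and a gene, and these are descriptions. Early and late regions were mixed along the gene: the last 2000 nt held 11 early and 3 late of 17, and the rest 12 early and 4 late of 26.

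**Figure D4:**
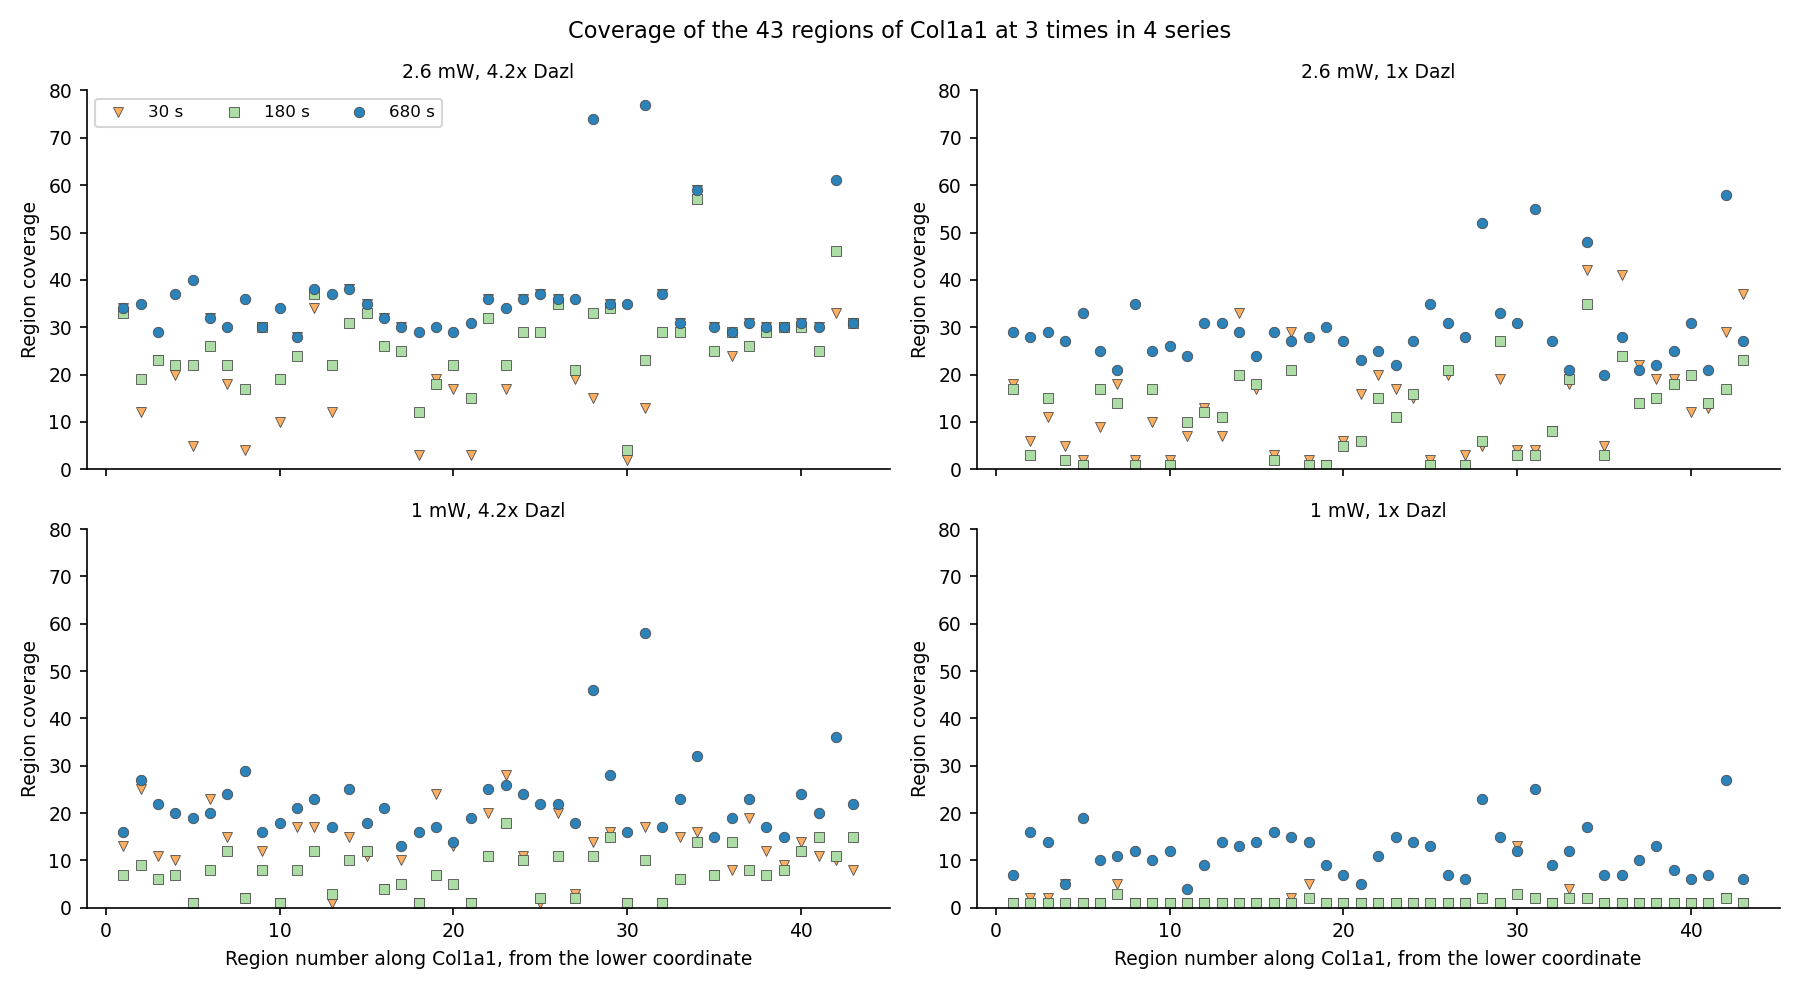
Coverage of the 43 regions of Col1a1 at 30, 180 and 680 s, in order along the gene, with 1 panel for each laser power and Dazl level. In the panel of 2.6 mW and 4.2x Dazl, 23 regions are equal at 30 and 680 s, so that one symbol covers the other. Region 31 reaches 77 there, and in the panel of 1 mW and 1x most regions stand at 1 until 680 s.

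Region courses differed in the other chains too. In Col1a2 the 2 regions at the start of the gene had 3, 11 and 21 and 5, 13 and 18 at 2.6 mW and 4.2x, so that both were lowest at 30 s. The 64-nt region at its end had 152, 152 and 176 in that series, and 101, 96 and 149 at 2.6 mW and 1x. At 1 mW that region had 55, 39 and 99 at 4.2x, and 8, 8 and 62 at 1x. The 3 regions beside it were equal at 30 and 680 s at 2.6 mW and 4.2x.

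In Col5a2, neighbouring regions took different courses. Region 1 (45374501 to 45374517) had 22, 21 and 22 at 2.6 mW and 4.2x, and region 2 (45374548 to 45374564) had 2, 2 and 24. Region 3 (45374582 to 45374598) had 21, 18 and 21. Region 4 (45375616 to 45375632) had 3, 9 and 36, with a log2 change of 2.43 ± 0.30 SE (limma adjusted p = 8.48e-15). Of the 10 regions, 4 had at least 90% of their 680 s coverage at 30 s in that series, where 47.6% of all regions did. At most 25% was seen in 3, where 16.9% of all regions had it. At 2.6 mW and 1x, 7 of the 10 had at most 25%, where 33.2% of all regions did.

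Col4a1 region 2 (11199624 to 11199640) had 35, 35 and 35 at 2.6 mW and 4.2x, and 5, 13 and 31 at 2.6 mW and 1x. Region 1 (11198477 to 11198493) had 18, 20 and 21 at 2.6 mW and 4.2x, and 17, 15 and 18 at 2.6 mW and 1x. The same region had 5, 3 and 10 at 1 mW and 4.2x, and 1, 1 and 8 at 1 mW and 1x. It was thus near its 680 s level at 30 s at both Dazl levels at 2.6 mW, and not at 1 mW. Its log2 difference with Dazl level was 0.41 (limma adjusted p = 0.158), against 1.24 (0.000151) for region 2.

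Tested one by one over all 8338 regions, 52 of the 62 collagen regions were called higher at 4.2x than at 1x Dazl (83.9%), where 74.6% of all regions were. With laser power 57 (91.9%) were called higher, where 91.5% of all were, and with time 34 (54.8%), where 61.5% were. None was called lower. Col1a1 had 38, 38 and 22 of 43 called higher with Dazl level, laser power and time. Col1a2 had 6, 6 and 3 of 6, and Col5a2 had 6, 10 and 7 of 10. Region 30 of Col1a1 (94951529 to 94951545) had 13, 3 and 12 at 1 mW and 1x, where its neighbours had 1 or 2 at 30 s, and 1, 1 and 16 at 1 mW and 4.2x. Its log2 difference with Dazl level was −0.39 ± 0.27 SE (limma adjusted p = 0.165), the only one of the 62 below 0.

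Other genes of collagen biology, from lists chosen with earlier results of these data known, give the setting. Of 39 other collagen genes 4 had a region: Col20a1, Col17a1, Col4a5 and Col11a2, with 1 each and a mean coverage of 11.5, 11.1, 8.42 and 3.42. Each factor called 3 of these 4 higher. Of 27 genes of collagen biosynthesis and folding 14 had a region, and 13 were called higher with each factor, where 82.4% of all genes were with Dazl level, 93.4% with laser power and 73% with time. Among them Serpinh1, the collagen chaperone Hsp47, had 18 regions and a coverage of 808 at 680 s, 2.6 mW and 4.2x. Canx and Pdia3, a chaperone and a disulfide isomerase of the endoplasmic reticulum, reached 1323 and 1107, and Fkbp9, a prolyl isomerase, 255.

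Of 16 genes of export and collagen mRNA binding 4 had a region, and all 4 were called higher with Dazl level and laser power and 2 with time. For these and the lists that follow, the shares of all genes called higher are the same 82.4%, 93.4% and 73%. These were Ssr1 and Sec61a1 of the translocation machinery and the retrieval receptors Kdelr1 and Kdelr2. Larp6, which binds collagen mRNAs, had none. Of 15 genes of secreted processing and crosslinking 6 had a region, with 6, 6 and 5 called higher with Dazl level, laser power and time. Lox, the lysyl oxidase that starts collagen crosslinks, reached 67. Of 18 genes of turnover 6 had a region, with 6, 4 and 5 called higher. The largest was Timp2, an inhibitor of matrix metalloproteinases, at 1391.

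Of 9 collagen receptor genes 2 had a region, Itgb1 (integrin beta 1, up to 849) and Ddr1 (a collagen-binding receptor kinase, up to 46). Of 24 matrix partners 11 had one, with 9, 11 and 8 called higher, among them Thbs1 (up to 1593), Sparc (745), Fn1 (605) and Lamc1 (219). In these 6 lists, without the other collagen genes, 43 of 109 genes had a region, with 39, 40 and 35 called higher with Dazl level, laser power and time, where 82.4%, 93.4% and 73% of all genes were. Their median log2 change was 0.99, 1.63 and 1.26, and that of all genes 0.88, 1.22 and 1.03. On scaled values 0 of the 43 were called with Dazl level or laser power, as were 0 of all 3203 genes. With time 5 of the 43 were called higher and 1 lower, where 9.49% and 1.56% of all genes were. Of the named genes, 2 passed there: Loxl2, a lysyl oxidase relative, with 1.54 ± 0.43 SE (limma adjusted p = 0.0293) and Ddr1 with 1.09 ± 0.34 (0.0457).

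The genes whose pattern over the 12 libraries was most like that of the 5 collagen genes together were found by the root mean square difference of log2(coverage + 3), centred for each gene, among 363 genes with at least 5 regions. They were Mapk14 (0.116), Tbc1d1 (0.122), Calm2 (0.122), Lmo4 (0.125) and Csnk1a1 (0.127), where the median gene had 0.264. The collagen genes' own distances to their joint pattern were 0.180 for Col5a2, 0.272 for Col1a2, 0.294 for Col1a1, 0.297 for Col4a1 and 0.550 for Col12a1.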

How the data were processed

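KIN-CLIP libraries of Dazl-bound RNA fragments were analysed from the deposited files of 12 samples; 4 samples of 0 s are not analysed here. The authors' deposited values are a score, their normalized coverage, in whole numbers from 1 to 24 per position, with no header and no strand. FastQC, Bowtie2 and the mm10 build were used, per the submitters' processing notes. How reads were counted and normalized is not given in the sources used, so depth in reads is unknown, and there are no counting intervals.

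Intervals separated by 10 nt or less were joined over all libraries. Regions were placed by gene spans of the RefSeq table of GRCm38.p6: in 1 gene only (7593) or in 1 coding gene among several (245), leaving out 314 in several genes and 186 in none. Log2(value + 3) was fitted with limma (version 3.58.1, R 4.3.3), with additive terms for Dazl level, laser power and time, using robust and trended eBayes. Adjusted p (Benjamini-Hochberg over all genes or regions) under 0.05 was a call. With 1 library per condition there were 7 residual degrees of freedom, and eBayes added a median of 107.09 for genes and 10.65 for scaled genes, and an infinite number for regions. P-values thus rest mostly on pooled spread, and those of regions wholly. Exact two-sided tests flipped signs of matched log2 ratios. The fit was tested on simulated data with independent libraries and no library effects. The real libraries are linked and most genes shift together, so that test cannot tell how far the p-values hold here. Alternatives were other pseudocounts, filters, joins, gene rules, scalings and left-out libraries and times. Named genes are the 5, every other collagen gene with a region, the 4 highest of each list and the 5 most like genes. Members and lists were chosen with earlier results of these data known. No sequence is printed, since none of the regions was at hand.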

Additional observations from a re-analysis of the deposited data

How the results depend on the processing

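No paired analysis was possible because the labels carry no replicate numbers to use as a block, with 1 library per condition. The pairs of the exact tests are libraries that differ in 1 factor. No called gene among those named changed direction, and of the fits tried for the 5 collagen genes 102 of 109 kept the side of the threshold for Dazl level, 109 of 109 for laser power and 85 of 99 for time. On scaled values these were 114 of 114, 112 of 114 and 99 of 104. For the 31 other named genes 3852 fits kept their side, 159 lost a call and 38 gained one. Without the 30 s libraries 1177 genes and 2674 regions were called with Dazl level, and without the 180 s libraries 1509 and 2730, against 2640 and 6224 with all. With scaled libraries and no 680 s libraries, 64 genes (56 higher, 8 lower) were called with Dazl level and 69 (40 and 29) with laser power, against 0 each. Centring on the median gene in place of the total gave 583 calls (98 higher, 485 lower) for Dazl level, 1079 (346 and 733) for laser power and 950 (327 and 623) for time, the last against 354 (304 and 50). Col4a1 then passed with laser power (0.69, limma adjusted p = 0.00503). Col5a2 passed with time on scaled values at a pseudocount of 10 (0.0486) and with only regions in 1 gene span (0.0499), where Col4a1 has no region. With a mean value of at least 10, 186 genes (145 higher, 41 lower) passed with time on scaled values, and of 5240 regions then tested 5050 passed with laser power and 2863 with time, against 7628 and 5125 of 8338. The exact tests of the 5 genes passed in 10 of 10 cases as deposited, with p adjusted over the 10. The library total was also higher in 6 of 6 pairs for both factors, so genes that only follow their library would pass too. On scaled libraries, chosen after seeing the data, 1 of 10 had an unadjusted exact p under 0.05. It was Col4a1 with laser power (0.58 ± 0.22 SD over 6 pairs, exact p = 0.0312, the smallest possible). The p-values of these scaled tests were not adjusted, so this is not counted as a pass. Leaving out 1 library gave 2225 to 2625 genes for Dazl level, 2794 to 3011 for laser power and 1678 to 2627 for time. On scaled values it gave 0 to 50, 0 to 389 and 105 to 476 genes, and for regions 4938 to 6243, 6998 to 7678 and 3893 to 6412. The causes of these changes were not tested. Joining only touching intervals gave 44, 8, 2, 11 and 1 regions for Col1a1, Col1a2, Col4a1, Col5a2 and Col12a1, and joining over 50 nt gave 40, 4, 2, 7 and 1. At 1 mW and 1x, 74.0% of regions at 30 s and 80.5% at 180 s stood at the lowest value, 1, which limits folds of single regions and small genes against those libraries.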
